A study of Ovis aries with 12 samples.

Results

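The miR-130, miR-301 and miR-454 family comprises miRNAs that carry the same seed on the 3p arm of their hairpins, so that they are predicted to bind the same sites in target mRNAs. The members were taken from the entries of the count table by name: an entry was a member where any of the names it joins reads, once species prefix, arm and copy number are dropped, as miR-130a, miR-130b, miR-301a, miR-301b or miR-454. This gave 7 of the 470 entries. They were hsa-miR-130a-3p, hsa-miR-130b-3p, mmu-miR-130b-5p, bta-miR-301a, hsa-miR-301a-5p, ggo-miR-454 and oan-miR-454-5p, each called here by its name without the species prefix. The entries miR-301a and miR-454 carry no arm in these names, and the miR-301a entry also carries the chicken name gga-miR-301b-3p. Both miR-301a entries hold a miR-301b name, in each case of chicken. Whether reads of sheep miR-301b fall in these entries cannot be told from the names. The miR-130a-3p entry joins 17 names, among them the platypus name oan-miR-130b-3p and several miR-130c names, so it is not of miR-130a names alone. The human, mouse and cattle names of miR-130b stand in the separate miR-130b-3p entry.

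Small RNA was sequenced from cultured endothelial cells of the main pulmonary artery of lambs. The 6 PPHN libraries, numbered 7 to 12, came from lambs whose ductus arteriosus was ligated in utero for 5 to 7 days from about day 125 of gestation, a surgical model of persistent pulmonary hypertension of the newborn (PPHN). The 6 control libraries, numbered 1 to 6, came from lambs with sham surgery, for which day 125 of gestation is given as well. In both groups the cells were selected with CD31 antibody beads and grown in medium with serum between passages 2 and 5, so the levels are those of cells some time after removal from the lamb. No genetic change is stated for either group. Whether the libraries of a group stem from separate lambs is not stated, so p-values cover only the spread among the libraries, part of which may be technical.

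In pulmonary hypertension this family is known as a group of miRNAs that act together. Work in human vascular cells and rodents placed it upstream of PPARG, a nuclear receptor that restrains vessel wall growth. Loss of PPARG there was linked to less miR-204 in smooth muscle and to less miR-424 and miR-503 in endothelium. In human, miR-301a and miR-454 lie together in an intron of SKA2, miR-130b and miR-301b lie together in another cluster, and miR-130a lies apart from both. In human endothelial cells miR-130a is known to repress the antiangiogenic homeobox genes MEOX2 and HOXA5.

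The totals over the listed entries ranged from 2250077 counts in PPHN 11 to 17740932 in PPHN 7 among PPHN libraries and from 4101316 in control 2 to 11171643 in control 4 among control libraries. Levels are given as CPM, the counts of an entry per 1000000 listed counts after TMM scaling. The endothelial miRNA miR-126 was nearly absent from PPHN 8, PPHN 11 and control 2. The sum of its 3 entries was 8.68 and 10.9 CPM in PPHN 8 and 11 and 10.7 CPM in control 2. It spanned 1266 to 2812 CPM among the other PPHN libraries and 364 to 4258 CPM in the other control libraries. The far more abundant entry mmu-miR-126b-3p, named after its values were seen, stood at 195 and 176 CPM in PPHN 8 and 11 and 161 CPM in control 2, with 27638 to 61873 CPM among the other PPHN libraries and 10588 to 98168 CPM among the other control libraries. Log2 fold changes of the members and medians of the related lists are also given without these 3 libraries.

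All 7 members were detected in all 12 libraries. The family as a whole stood at nearly the same level in both groups, with a summed level of 1042 ± 255 CPM in the PPHN libraries and 1033 ± 267 CPM in the control libraries (SD, n = 6 each). The sum was lowest at 695 CPM in PPHN 8, had a median of 1148 CPM and reached 1313 CPM in PPHN 10. Among control libraries it was lowest at 718 CPM in control 6, had a median of 997 CPM and reached 1360 CPM in control 4. On the log2 scale the mean sums differed by 0.013 (PPHN minus control), against a pooled SD of 0.38 between libraries. With PPHN 8, PPHN 11 and control 2 left out this difference was 0.33. The sums of PPHN 8 and PPHN 11 were the lowest of the PPHN group, and that of control 2 (1304 CPM) was above every control library but control 4.

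The seed-bearing entries miR-130b-3p and miR-130a-3p were the most abundant members, with means over all 12 libraries of 365 and 318 CPM, at ranks 97 and 107 among all 468 tested entries. They were followed by miR-130b-5p (175 CPM), miR-454 (69.3 CPM), miR-301a (60.4 CPM), miR-454-5p (45.9 CPM) and miR-301a-5p (3.17 CPM). Neighbours in this order were not all apart. The level of miR-130b-3p exceeded that of miR-130a-3p in only 7 of the 12 libraries, miR-454 exceeded miR-301a in 9 and miR-301a exceeded miR-454-5p in 10. By contrast miR-130b-5p lay above miR-454, and miR-454-5p above miR-301a-5p, in all 12 libraries. Mature miRNAs are of nearly the same length, but capture in library preparation differs between sequences and was not measured, so the order is that of read counts.

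**Figure D1:**
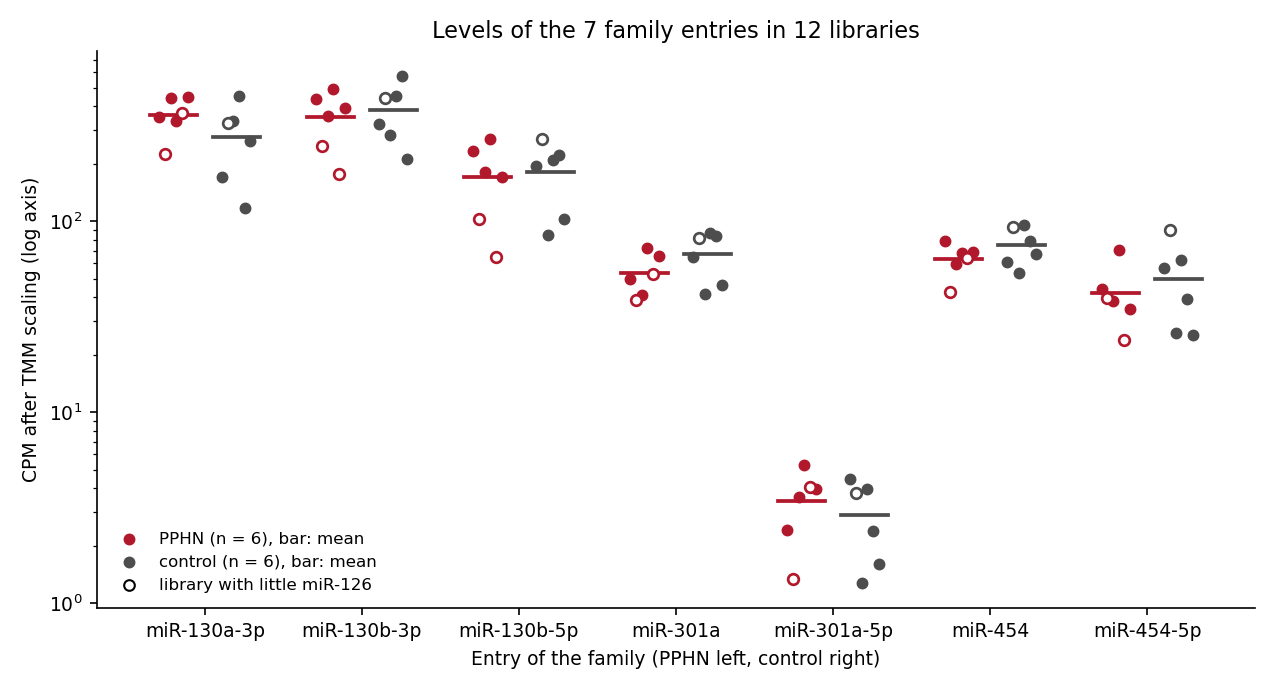
Level of each family entry in every library (CPM after TMM scaling, log axis), with PPHN libraries left and control libraries right; bars are group means of 6 libraries and open circles are the 3 libraries with little miR-126. The groups overlap for every entry; for miR-130b-3p and miR-130b-5p the lowest points are PPHN 11, at 176 and 64.7 CPM.

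None of the 7 members differed between PPHN and control by the edgeR quasi-likelihood test fitted over all entries with Benjamini-Hochberg adjustment (0 of 7, against 0% of the 468 tested entries). The adjusted p-values of the members lay between 0.751 and 0.957. At an unadjusted p under 0.05 there were also 0 of 7 members, against 10.5% of all entries. Nor did the groups separate for any member, while they did for 1.28% of all entries. DESeq2 called 0 of the 7 members, against 2.58% of all entries, and limma-voom called 0 members and 0% of all entries. Of the members, 5 of 7 had a log2 fold change below 0 (54.5% of all entries did) and 2 of 7 above 0 (45.5%). Their median log2 fold change was -0.12, against -0.08 over all 468 entries.

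The entry miR-130a-3p stands for the member that lies apart from the clusters in human. Its level ranged from 223 CPM in PPHN 8 over a median of 359 CPM to 446 CPM in PPHN 12. In control libraries it ranged from 117 CPM in control 5 over a median of 294 CPM to 450 CPM in control 4. All 6 PPHN values lay inside the control range, and control 5 and control 1 (169 CPM) lay below every PPHN library. The means were 360 ± 81.7 CPM in the PPHN libraries and 277 ± 121 CPM in the control libraries (SD, n = 6 each). The log2 fold change was 0.38 (SE 0.31, edgeR adjusted p = 0.751), with a 95% interval from 0.815-fold to 2.08-fold. It stayed above 0 with each library left out in turn, between 0.22 without control 5 and 0.57 without control 4, and was 0.53 with PPHN 8, PPHN 11 and control 2 left out.

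The sister miRNA miR-130b-3p, which shares the seed, lay closer to 0 in its log2 fold change. Its level was lowest at 176 CPM in PPHN 11, with a median of 372 CPM and a highest value of 493 CPM in PPHN 10. Control libraries ranged from 212 CPM in control 6 over a median of 383 CPM to 574 CPM in control 5. Only PPHN 11 lay outside the control range. The log2 fold change was -0.12 (SE 0.30, edgeR adjusted p = 0.920), with a 95% interval from 0.583-fold to 1.45-fold. The opposite strand of the hairpin, miR-130b-5p, was at 64.7 to 270 CPM in PPHN (median 175 CPM) and at 84.4 to 267 CPM in control (median 202 CPM), with a log2 fold change of -0.08 (SE 0.38, edgeR adjusted p = 0.957). Both signs turned without the 3 libraries with little miR-126, to 0.15 for miR-130b-3p and 0.35 for miR-130b-5p.

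In human, miR-301a and miR-454 share the SKA2 intron, but the miR-301a entry may also hold reads of miR-301b, which lies beside miR-130b. The level of miR-301a ranged from 38.4 CPM in PPHN 8 over a median of 51.2 CPM to 72.4 CPM in PPHN 10, against 41.5 CPM in control 3, a median of 73.2 CPM and 86.9 CPM in control 4. PPHN 8 and PPHN 9 (41.2 CPM) lay below all control libraries and the other 4 PPHN libraries lay among them. Its log2 fold change was -0.34 (SE 0.27, edgeR adjusted p = 0.751), with a 95% interval from 0.528-fold to 1.18-fold. The level of miR-454 ranged from 42.7 CPM in PPHN 8 over a median of 66.1 CPM to 78.2 CPM in PPHN 7, against 53.7 CPM in control 3, a median of 73.3 CPM and 95.1 CPM in control 4. Its log2 fold change was -0.24 (SE 0.23, edgeR adjusted p = 0.780), with a 95% interval from 0.602-fold to 1.19-fold. With PPHN 8, PPHN 11 and control 2 left out, the log2 fold changes were -0.22 for miR-301a and -0.09 for miR-454.

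The 5p entries of these names were less precise. The level of miR-454-5p was 23.9 to 70.5 CPM in PPHN (median 38.8 CPM) and 25.4 to 90.2 CPM in control (median 48.0 CPM), with a log2 fold change of -0.26 (SE 0.37, edgeR adjusted p = 0.906) that turned to 0.11 without PPHN 8, PPHN 11 and control 2. The entry miR-301a-5p had only 4 to 40 counts per PPHN library and 7 to 49 per control library. It stood at 1.34 to 5.28 CPM in the PPHN libraries and at 1.28 to 4.47 CPM in the control libraries, with a log2 fold change of 0.24 (SE 0.41, edgeR adjusted p = 0.920), which was 0.40 without the 3 libraries. Its 4 counts in PPHN 8 correspond to 1.51 CPM before scaling, with an exact (Clopper-Pearson) 95% interval of 0.410 to 3.86 CPM, which covers counting error only.

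**Figure D2:**
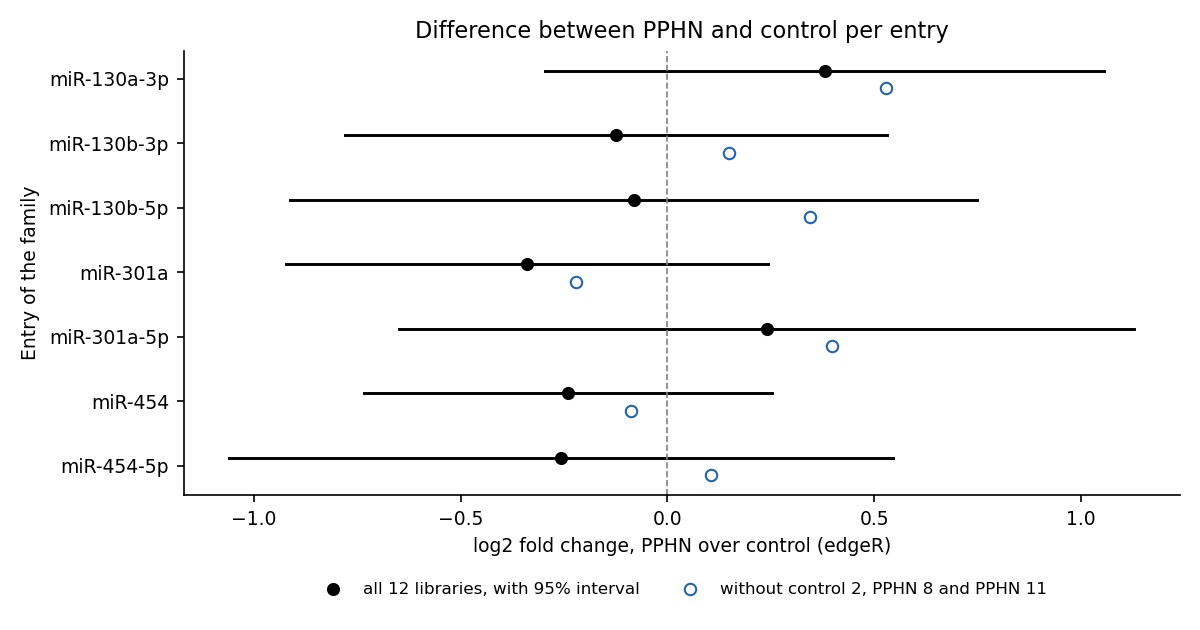
Log2 fold change of each family entry, PPHN over control, from edgeR: filled points with 95% intervals use all 12 libraries, open points leave out PPHN 8, PPHN 11 and control 2. All 7 intervals cover 0, and the open points of miR-130b-3p (0.15), miR-130b-5p (0.35) and miR-454-5p (0.11) lie on the other side of 0 from their filled points.

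With PPHN 8, PPHN 11 and control 2 left out, 5 of 7 members had a log2 fold change above 0, against 39.4% of all entries in the same fit, and 0 of 7 passed the threshold (0% of all entries). PPHN 8 and PPHN 11 also had the lowest totals of the series and low levels of fibroblast markers. The summed level of the 8 entries of miR-199 and miR-214, markers of fibroblasts, was 1578 CPM in PPHN 8 and only 135 CPM in PPHN 11. It spanned 4246 to 9619 CPM over the other PPHN libraries and 3223 to 19404 CPM in control libraries, with 5018 CPM in control 2. The summed level of miR-143 and miR-145, markers of smooth muscle, was 2158 CPM in PPHN 8 and 2389 CPM in PPHN 11. The other PPHN libraries had 18373 to 253907 CPM. Control libraries ranged from 2212 CPM in control 2 to 301453 CPM in control 6. The 2 red blood cell entries summed to 15.4 to 203 CPM over the PPHN libraries and 69.0 to 900.4 CPM over the control libraries. Nearly all of each sum came from hsa-miR-486-5p. The level of bta-miR-451 was 0.334 to 8.67 CPM in PPHN and 0.970 to 9.58 CPM in control (log2 fold change -0.73, SE 0.78). In control 6, where hsa-miR-486-5p was highest at 897 CPM, bta-miR-451 was at 2.98 CPM. The epithelial entry oar-miR-200b spanned 29.5 to 150 CPM over the PPHN libraries and 0 to 398 CPM over the control libraries, and the leukocyte list had 0 entries in the table. On none of these marker lists did an entry pass the edgeR threshold. Over all libraries, the 8 fibroblast entries all had a log2 fold change below 0 (median -0.82). So had both red blood cell entries (median -1.45), against 54.5% of all entries. The highest fibroblast sum, 19404 CPM, was that of control 3, and the next highest control sum was 8376 CPM in control 1. The fibroblast entries are not separate observations, since some name the same miRNA, such as hsa-miR-214-3p and cgr-miR-214-3p. The red blood cell entry hsa-miR-486-5p was at -2.16 (SE 0.73), with an edgeR unadjusted p of 0.012 and an adjusted p of 0.340. The part of cell makeup and depth in the family's values was not tested, and in bulk samples fewer cells of a type cannot be told apart from less RNA per cell.

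The balance of the miR-130a-3p entry to the miR-130b-3p entry differed between libraries in both groups. The ratio of miR-130a-3p to miR-130b-3p counts, which no scaling affects, was lowest in PPHN 10 at 0.675, had a median of 1.03 and reached 2.08 in PPHN 11. Among control libraries it ranged from 0.204 in control 5 over a median of 0.865 to 1.24 in control 6. The groups overlapped broadly. The share of miR-130a-3p in all family counts was 35.5 ± 8.34% in PPHN and 27.5 ± 11.4% in control (SD, n = 6 each), and that of miR-130b-3p was 33.0 ± 5.16% in PPHN and 36.5 ± 7.65% in control. PPHN 11 and control 5 mark the ends of this balance: miR-130a-3p made up 48.8% and miR-130b-3p 23.4% of the family counts in PPHN 11, while the shares were 10.5% and 51.4% in control 5.

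**Figure D3:**
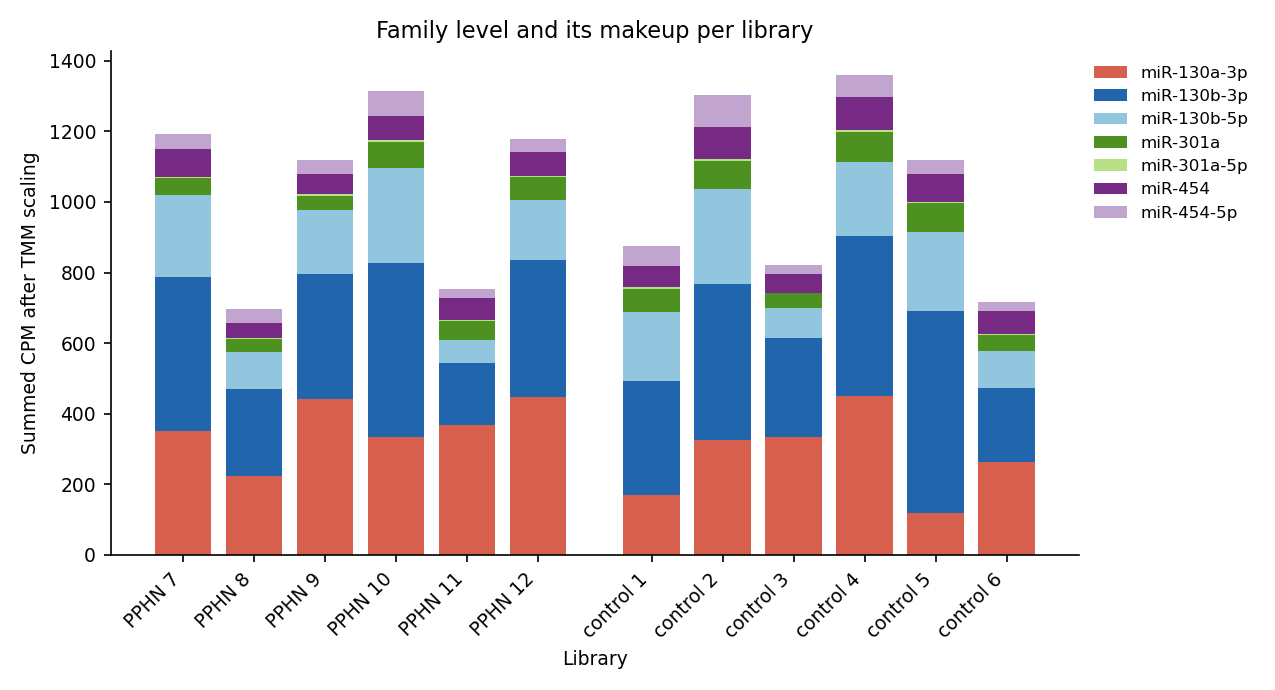
Summed level of the 7 family entries in each library (CPM after TMM scaling), split by entry, with PPHN libraries left and control libraries right. The sums span 695 to 1360 CPM in both groups together, and the share of miR-130a-3p is smallest in control 5 (117 CPM).

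The use of the hairpin arms was described by the ratio of counts from the strands of each hairpin, which needs no scaling. For miR-130b the 3p arm had 1.82 to 2.73 times the counts of the 5p arm in PPHN and 1.65 to 3.32 times in control. The miR-454 entry names no arm and was read here as the strand opposite miR-454-5p, which the table does not state. It had 0.968 to 2.68 times the counts of miR-454-5p in PPHN and 1.04 to 2.66 times in control. For miR-301a the ratio was far larger, at 11.5 to 28.8 in PPHN and 14.6 to 35.2 in control. The groups overlapped for all 3 ratios. The count ratio of miR-301a to miR-454 was narrow, at 0.845 ± 0.161 in PPHN and 0.894 ± 0.153 in control (SD, n = 6 each).

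Correlations between the members were taken across the 12 libraries. All correlations are of log2 CPM, share the scaling of each library, and were adjusted over the 21 pairs of members, with permutation tests of 100000 draws. The arms of miR-130b had r = 0.91 (adjusted permutation p = 0.0021) and rho = 0.87 (adjusted permutation p = 0.0042). The entries miR-301a and miR-454 had r = 0.80 (adjusted permutation p = 0.0107) and rho = 0.87 (adjusted permutation p = 0.0042). The 5p strands miR-130b-5p and miR-454-5p, from different hairpins, had r = 0.84 (adjusted permutation p = 0.00777) and rho = 0.87 (adjusted permutation p = 0.0042). Without the 2 libraries farthest from the median of the first-named entry, r was 0.84, 0.68 and 0.75 for these pairs in the order given. Within PPHN and within control libraries r was 0.99 and 0.82 for the arms of miR-130b, 0.64 and 0.85 for miR-301a and miR-454 and 0.84 and 0.89 for the 5p strands.

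These were the 3 of 21 pairs whose r passed an adjusted p of 0.05. The pair of miR-454 and miR-454-5p did not pass (r = 0.51, adjusted permutation p = 0.145; rho = 0.47, adjusted permutation p = 0.247). Nor did miR-301a and miR-301a-5p (r = 0.63, adjusted permutation p = 0.0762; rho = 0.52, adjusted permutation p = 0.197). By rho, miR-130b-3p passed as well with miR-301a (r = 0.68, adjusted permutation p = 0.0754; rho = 0.74, adjusted permutation p = 0.0401) and with miR-454 (r = 0.59, adjusted permutation p = 0.0867; rho = 0.72, adjusted permutation p = 0.0454). The 15 pairs that leave out miR-130a-3p had r between 0.37 and 0.91, with a median of 0.63. The 6 pairs of miR-130a-3p with another member had r between -0.15 and 0.28, with a median of -0.04, and 0 of them passed. Without the 2 libraries farthest from the median of miR-130a-3p these r were 0.67 with miR-301a-5p, 0.50 with miR-454, 0.45 with miR-130b-3p, 0.44 with miR-301a, 0.33 with miR-130b-5p and 0.12 with miR-454-5p. Within the 6 PPHN libraries r was 0.73 with miR-301a-5p and 0.68 with miR-454, where the control libraries had -0.02 and 0.24; the difference between the groups was not tested. With its sister miR-130b-3p, r was -0.10 (adjusted permutation p = 0.828) and rho was 0.0070 (adjusted permutation p = 0.991). That value depended on control 5, where miR-130a-3p was lowest and miR-130b-3p highest: without control 5, r was 0.33. The difference between the correlations of miR-130a-3p and those of the other members was not tested.

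**Figure D4:**
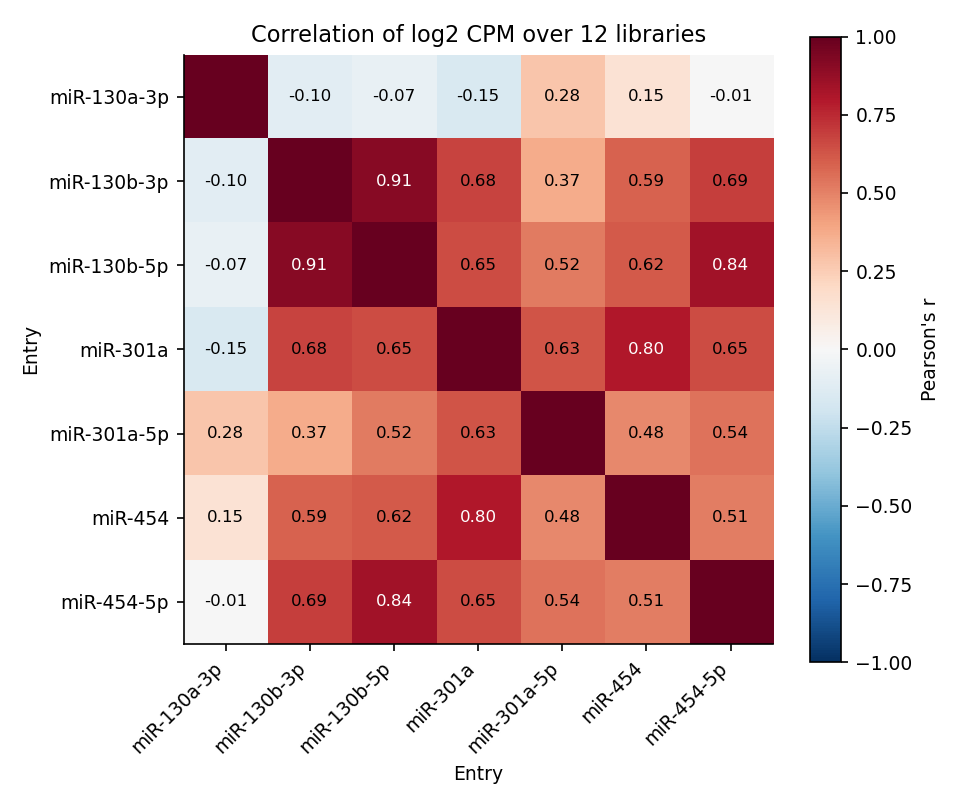
Pearson's r of log2 CPM over the 12 libraries for each pair of family entries, on a colour scale from -1 to 1. The row of miR-130a-3p holds values between -0.15 and 0.28, whereas the other 6 entries have values between 0.37 and 0.91 with each other.

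The likeness of other miRNAs was ranked over the 323 other entries with a mean of at least 10 CPM, by r over the 12 libraries and as a description only. For miR-301a, miR-454 ranked 3 among them. The closest non-members were hsa-miR-505-3p (r = 0.82, rho = 0.78), rno-miR-3589 (r = 0.80, rho = 0.87) and hsa-miR-1307-3p (r = 0.79, rho = 0.71). For miR-454, miR-301a ranked 4, after hsa-miR-3168 (r = 0.86, rho = 0.79), ssc-miR-186 (r = 0.85, rho = 0.84) and hsa-miR-505-3p (r = 0.80, rho = 0.69). The median r over all 323 entries was 0.01 for miR-301a and 0.03 for miR-454.

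For miR-130b-3p its own 5p arm ranked 1, and the closest non-members were bta-miR-2285ad (r = 0.86, rho = 0.83), hsa-miR-18a-5p of the miR-17-92 cluster (r = 0.84, rho = 0.75) and bta-miR-423-3p (r = 0.79, rho = 0.85). For miR-130a-3p they were rno-miR-3590-5p (r = 0.85, rho = 0.69), oar-miR-22-3p (r = 0.81, rho = 0.57) and bta-miR-3600 (r = 0.81, rho = 0.58). Averaged over all libraries, the level was 90072 CPM for oar-miR-22-3p and 89510 CPM for bta-miR-3600. Both entries may hold the same reads, which was not tested, so they cannot be counted as separate observations. Within groups, oar-miR-22-3p had r = -0.0044 with miR-130a-3p in the PPHN libraries and r = 0.89 in the control libraries, and bta-miR-3600 had r = -0.0071 and 0.89 there; the difference between the groups was not tested. The best rank of another family member among the 323 entries by likeness to miR-130a-3p was 134, held by miR-454.

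The family's seed overlaps in part with those of miR-148, miR-152 and miR-19. The miR-148 and miR-152 family had 0 of 5 entries past the edgeR threshold, 2 higher and 3 lower in PPHN, with a median log2 fold change of -0.01 (-0.08 over all entries), or 0.04 with PPHN 8, PPHN 11 and control 2 left out. Its main entry oar-miR-148a stood at 29957 ± 7900 CPM in the PPHN libraries and 31488 ± 10631 CPM in the control libraries (SD, n = 6 each), so that it held many times the counts of all 7 members together. The level of oar-miR-152 was 2538 ± 404 CPM in the PPHN libraries and 2558 ± 397 CPM in the control libraries, with a log2 fold change of -0.01 (SE 0.15). The levels of mmu-miR-148b-5p were 172 ± 52.7 CPM in the PPHN libraries and 140 ± 38.9 CPM in the control libraries, and those of hsa-miR-148b-3p were 14.5 ± 1.60 CPM in the PPHN libraries and 13.7 ± 2.09 CPM in the control libraries. The only miR-19 entry, oar-miR-19b of the miR-17-92 cluster, was at 678 ± 213 CPM in the PPHN libraries and 742 ± 175 CPM in the control libraries (log2 fold change -0.13, SE 0.24, edgeR adjusted p = 0.920; -0.23 without the 3 libraries).

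The miRNAs placed downstream of the family and PPARG also had 0 of 4 entries past the threshold, with 2 higher and 2 lower in PPHN and a median log2 fold change of -0.14. The sign of this median turned without PPHN 8 (0.021), without PPHN 11 (0.047), without both and control 2 (0.23) and with the filter of 10 CPM in 6 libraries (0.19). The entry mmu-miR-503-5p did not pass that filter, so the last of these medians leaves it out. The level of hsa-miR-204-5p, linked to smooth muscle in that work, ranged from 589 CPM in PPHN 11 over a median of 1999 CPM to 3307 CPM in PPHN 10, against 401 CPM in control 5, a median of 866 CPM and 2118 CPM in control 4. PPHN 9, PPHN 10 and PPHN 12 lay above all control libraries and the other 3 PPHN libraries lay among them (log2 fold change 0.88, SE 0.53, edgeR adjusted p = 0.579). The endothelial miRNA hsa-miR-424-5p was at 40.4 ± 30.2 CPM in the PPHN libraries and 38.5 ± 16.4 CPM in the control libraries (log2 fold change 0.07, SE 0.51). The other arm hsa-miR-424-3p was at 34.4 ± 20.5 CPM in the PPHN libraries and 43.8 ± 17.8 CPM in the control libraries (log2 fold change -0.35, SE 0.47). The partner mmu-miR-503-5p was near the floor of 3 counts, at 0 to 6.18 CPM in the PPHN libraries and 1.38 to 7.50 CPM in the control libraries, and 0 counts in PPHN 8 allow up to 1.13 CPM before scaling.

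The spread of the members between libraries was below the median of all tested entries, which were not matched to the members by abundance. The biological coefficient of variation that edgeR estimated per entry lay between 0.372 for miR-454 and 0.515 for miR-130b-5p. All 7 members were below the median of 0.529 over the 468 entries, which ranged from 0.272 to 1.98. Close to this median were miR-130b-5p and miR-454-5p (0.505), at ranks 223 and 219 from the lowest. In the authors' deposited table, 0 of the 7 members had a DESeq2 p-value under 0.05 (15.3% of the 470 entries did), 0 an edgeR p-value (11.7%) and 0 a q-value in the column that names no tool (2.55%). The p-values and q-values of DESeq and the q-values of edgeR in the authors' deposited table were under 0.05 for 0% of all entries. The edgeR log2 fold changes of the members in the authors' deposited table ran from -0.34 for miR-301a to 0.37 for miR-130a-3p.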

How the data were processed

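Libraries of 6 PPHN and 6 control cultures were prepared from total RNA using the TruSeq kit for small RNA, per the labels' protocols. The deposited table holds raw counts for each miRNA entry, per the file headers. It also holds the authors' p-values and q-values from DESeq, DESeq2 and edgeR and their log2 fold changes; 1 column of q-values names no tool. The submitters' processing notes list Trim Galore 0.2.5 and Bowtie 1.1.1; the settings, the miRNA reference and the genome build are not stated in what was used here. Of 470 entries, 149 join names of several species; 5 of the 7 members do, and 0 of the 7 carry a sheep name. Near-identical entries can share reads.

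The robust quasi-likelihood test of edgeR 4.0.16 (R 4.3.3) was run on the 468 entries that filterByExpr kept, with TMM scaling, Benjamini-Hochberg adjustment over all of them and a threshold of 0.05. Log2 CPM used a prior count of 2. Standard errors came from the log2 fold change and its F statistic, and intervals from these with the fitted degrees of freedom. The floor of 3 counts lies between 0.169 and 1.33 CPM before scaling; intervals and floors are of counting error alone. Correlations were tested by permuting pairings. The tests were also run on simulated data, whose results are not given here, so how small a difference they could find is not stated.

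The members and lists were chosen with earlier results of these data known. All members were named, up to 4 of the most abundant entries per list, and the 3 non-member entries with the highest r for each seed-bearing member with a mean of at least 10 CPM. Alternatives were RLE and upper-quartile scaling, no scaling, no filter, a filter of 10 CPM in 6 libraries, DESeq2 1.42.0, limma-voom (limma 3.58.1), an exact permutation test over 924 assignments, the more abundant arm only, and leaving out each library or 3 libraries with little miR-126. The alternatives for the correlations, and that without 3 libraries for the family sum, were chosen after seeing the data. No member sequence was used here.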

Additional observations from a re-analysis of the deposited data

Results flagged for a closer look

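By Dixon's test, 14 of 110 groups of 6 libraries held a library set apart from the rest. About 5% of groups would do so by chance if the values were normally distributed, which was not checked. Several of the entries are also near copies of each other, so 14 cannot be set against that share. Of the family's own quantities, the share of miR-130b-3p in the family counts was 51.4% in control 5, against 29.5 to 37.0% in the other controls. The share of miR-454 was 9.42% in control 6, against 6.53 to 7.16%. None of the 7 members' levels themselves stood out in this way.

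Among miRNAs set beside the family, mmu-miR-148b-5p was at 279 CPM in PPHN 10, with the rest of its group at 141 to 162 CPM. Of the entries most like a member, bta-miR-423-3p was at 382 CPM in PPHN 11, against 631 to 763 CPM, and hsa-miR-3168 was at 1355 CPM in PPHN 7, against 29.7 to 341 CPM. That library was lowest for oar-miR-22-3p (83385 CPM; others of its group 98223 to 105313 CPM) and for bta-miR-3600 (82851 CPM; others 97625 to 104704 CPM).

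Among the markers of other cell types, control 3 was high in fibroblast entries: bta-miR-3604 was at 10191 CPM, with the other controls at 1673 to 4480 CPM, oar-miR-199a-3p at 8334 CPM, hsa-miR-214-3p at 336 CPM and cgr-miR-214-3p at 236 CPM. In PPHN 10 the red blood cell miRNAs hsa-miR-486-5p and bta-miR-451 were at 195 and 8.67 CPM, while the rest of the group had 15.0 to 73.9 and 0.334 to 2.85 CPM. The epithelial miRNA oar-miR-200b reached 398 CPM in control 4, where the rest of the controls had 0 to 4.74 CPM. Their part in the family's values was not tested.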

How the results depend on the processing

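The count of 0 called members held under all 20 alternatives run. So did that of 0 called entries on the lists of miR-148 and miR-152, of miR-19, and of miR-204, miR-424 and miR-503. The exact permutation test had little room to call any entry, since its 924 assignments limit how small p can be before adjustment. The marker lists of cell types were not counted under the alternatives. Over all entries DESeq2 called 12 and the fit without 1 library called 0 to 1 (1 without PPHN 8), against 0. The log2 fold changes of miR-130a-3p (0.22 to 0.57), miR-301a (-0.51 to -0.22), miR-454 (-0.38 to -0.09) and miR-301a-5p (0.00059 to 0.40) kept their sign in every alternative that gave a value; the filter of 10 CPM gave none for miR-301a-5p. Others reversed. Without the 3 libraries with little miR-126 they were 0.15 for miR-130b-3p, 0.35 for miR-130b-5p and 0.11 for miR-454-5p, and the filter of 10 CPM gave 0.016 for miR-130b-5p. With 1 library left out, miR-130b-3p ranged from -0.33 to 0.030, above 0 without control 5 or PPHN 11, and miR-130b-5p from -0.34 to 0.077, above 0 without control 2, PPHN 8 or PPHN 11; the cause was not tested. The difference of the family sums ranged from -0.084 to 0.12 with 1 library left out. Without TMM scaling r was 0.92 for miR-301a and miR-454, against 0.80 with it. For miR-454 and miR-454-5p it was 0.72 without TMM scaling, against 0.51. The filter of 10 CPM moved the median log2 fold change of all entries to 0.04, against -0.08; upper-quartile scaling moved it to -0.14. Depth limited miR-301a-5p most, with as few as 4 counts. No paired analysis was possible because the groups share no replicate numbers.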
